A study of Mus musculus with 6 samples.

Results

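Dsg2 and Krt8 are genes of epithelial cells, and the regions described here are those around them in an accessibility profile of mouse fibroblasts. They comprise every region that the deposited table annotates to either gene, together with every region within 100 kb of the listed gene span on the same chromosome, 28 of 52957 regions in all. Dsg2 gave 1 annotated region and 6 flanking regions, and Krt8 gave 2 annotated and 19 flanking regions. Both genes were chosen from earlier results of the same comparison, described as a rise in the active line around each gene. The exact basis of the choice is not stated. The values of their annotated regions are therefore given as a description with no test. The distance rule itself used no measured value.

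NIH3T3 is a line of mouse fibroblasts that grows without limit in culture and does not have a normal set of chromosomes. All 6 libraries came from stable knock-ins of a T3H48 hammerhead ribozyme, an RNA that cuts itself, placed in intron 3 of Actg1, which encodes gamma-actin of the cytoplasm. In 3 libraries the ribozyme was the active form (T3H48-aHHR) and in 3 the inactive form (T3H48-iHHR), and no library without a knock-in was analysed here. ATAC-seq reads out accessibility through Tn5, a transposase that cuts and tags open DNA. The values are normalised reads per region, summing to 6433944 to 6548535 per library. Reads in these regions before scaling were estimated at 3710000 to 6840000 per active and 7330000 to 8960000 per inactive library. The active libraries thus held fewer reads in the regions, and their low values carry more counting error. Whether fewer reads were sequenced or a smaller share fell in the regions was not tested. Nothing in the labels says that libraries of 1 group are separate cultures or clones. The p-values therefore reflect only how these libraries vary, which may be technical variation, and an effect of ribozyme activity and a difference between lines cannot be told apart.

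Desmosomes are junctions that fasten epithelial and heart muscle cells to each other. Their adhesive proteins are 2 families of cadherins, the desmogleins and the desmocollins, whose tails bind plakoglobin and plakophilins, and desmoplakin then links these to intermediate filaments. Desmoglein-2, encoded by Dsg2, is the most widely expressed desmoglein and the one found in simple epithelia. In such cells the filaments are made of keratins, which assemble as pairs of a type I and a type II protein, and keratin 8, encoded by Krt8, is the type II partner of keratin 18. Fibroblasts as a rule build filaments of vimentin instead, and factors such as ZEB and SNAIL, which bind E-box sequences, are known as repressors of epithelial genes.

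On mm39, Dsg2 was listed on the plus strand of chromosome 18 from 20691131 to 20737578 and Krt8 on the minus strand of chromosome 15 from 101905133 to 101912917.

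None of the regions lay over the start site of either gene, whereas 8675 of the 11180 genes with a symbol in the table (77.6%) had a region over theirs. All 3 annotated regions lay upstream. That of Dsg2 was centred 3606 bp from the start site, and those of Krt8 were centred 952 and 2688 bp from it. Within the gene bodies there was 1 region in Dsg2 and 0 in Krt8.

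The sequence around the Krt8 start is shown because it is the stretch that the accessible regions leave out, with that of Eif4b, a nearby translation factor gene whose start region rose, beside it. Both come from RefSeq on GRCm38.p6, a different build from that of the table, and run from 250 bases before the RefSeq start to 30 bases from it on, 5′ to 3′ on the gene's strand. The RefSeq start need not be the start used in the table. Krt8 is chr15:102004313-102004592 on the minus strand and Eif4b chr15:102073523-102073802 on the plus strand. Capitals mark matches to TATAAA, the TATA box, and to CACCTG, an E-box of the kind that ZEB and SNAIL bind, on either strand.
Krt8: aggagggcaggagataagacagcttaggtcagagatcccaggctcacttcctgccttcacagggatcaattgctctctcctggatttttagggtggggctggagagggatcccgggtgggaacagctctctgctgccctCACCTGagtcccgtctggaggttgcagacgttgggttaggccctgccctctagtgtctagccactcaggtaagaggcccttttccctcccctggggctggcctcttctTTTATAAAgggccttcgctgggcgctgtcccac
Eif4b: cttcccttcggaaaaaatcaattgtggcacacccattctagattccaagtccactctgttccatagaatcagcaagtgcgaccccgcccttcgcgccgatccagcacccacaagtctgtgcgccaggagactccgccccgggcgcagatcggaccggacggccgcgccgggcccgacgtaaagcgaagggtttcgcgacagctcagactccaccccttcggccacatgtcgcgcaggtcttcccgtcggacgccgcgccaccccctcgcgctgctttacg

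The Krt8 sequence held CACCTG once, with its first base 111 bases before the start. It also held TATAAA on each strand, as overlapping matches at the start itself. Of 32851 RefSeq promoter stretches of this length, 19.1% held CACCTG and 13.1% held TATAAA on either strand. The AP-1 motif TGANTCA (7.46% of stretches) and the TEAD motif GGAATG (13.9%) had no match in either sequence, and Eif4b matched none of the 4 motifs. A match is a description of letters, and no region of the table was found at this part of Krt8.

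Around Dsg2, accessibility was higher in the active line at regions spread over a stretch much longer than the gene and lying almost wholly upstream of it. The Dsg2 region, on chromosome 18 from 20687185 to 20687865, stood at 173, 193 and 168 normalised reads in active replicates 1 to 3 and at 25, 32 and 24 in inactive replicates 1 to 3. Each active library lay far above each inactive one. In bulk profiles, a larger share of cells with an open region and more open DNA per cell cannot be told apart. The group means were 178 ± 13.2 and 27 ± 4.36 (SD, n = 3 each), a ratio of 6.59, and the log2 fold change was 2.69 ± 0.15 SE. Log2 fold changes are active against inactive on the log2(value + 1) scale throughout, which understates changes of low regions.

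Of the 6 regions that flank Dsg2 within 100 kb, 5 had enough reads to be tested, and 4 of these rose while 0 fell (limma, Benjamini-Hochberg adjusted p under 0.05 over all tested regions). In inactive libraries, the regions at 20610195, 20685841 and 20705500 had means of 2.33, 7.67 and 4.33, under the 10 required for testing. Such regions could enter the test only with higher active values, and their calls and adjusted p-values carry this limit. Over the whole genome 30.9% of tested regions were called higher and 29.2% lower, and on chromosome 18 the shares were 18.5% and 53.1%. Since Dsg2 was chosen in this comparison, the count of its neighbours is set beside these shares and nothing is read from it.

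The nearest flanking region, from 20685841 to 20686008 and listed with a processed pseudogene without a symbol, held 34, 30 and 38 normalised reads in active and 6, 8 and 9 in inactive libraries. It rose by a log2 fold change of 2.02 ± 0.29 SE (limma, adjusted p = 1.16e-07). At 20650202 to 20650674, 40.7 kb upstream of the Dsg2 start, active libraries held 150, 131 and 118 and inactive ones 29, 28 and 31, a log2 fold change of 2.14 ± 0.15 SE (limma, adjusted p = 1.05e-15). Its mean of 133 ± 16.1 in the active line was below that of the Dsg2 region, and its 29.3 ± 1.53 in the inactive line was close to it.

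The largest change lay 80.8 kb upstream, at 20610195 to 20610407. There the active libraries held 55, 51 and 57 normalised reads and the inactive ones 4, 2 and 1. The region held almost no reads in the inactive line, and its log2 fold change of 4.15 ± 0.35 SE (limma, adjusted p = 3.02e-13) rests on very few reads there. Inside the gene, 14.45 kb past its start, the region at 20705500 to 20705663 rose from 4, 4 and 5 to 17, 21 and 13 (limma, adjusted p = 2.68e-04, log2 fold change 1.74 ± 0.40 SE). It fell under the required mean of 10, and so out of the test, without active replicate 1 or active replicate 2, which left 3 flanking regions higher. The region at 20674478 to 20674672 held 11, 9 and 8 against 4, 3 and 4 and was below the mean required for testing. With no filter on low values it was tested and called higher, which made 5 flanking regions higher.

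Downstream of Dsg2 the pattern ended. The region at 20773122 to 20773433, 35.5 kb past the end of the gene, held 6, 9 and 13 in active and 17, 16 and 14 in inactive libraries. Here the active libraries lay below the inactive ones, in contrast to all regions upstream within 100 kb, but the difference did not pass (log2 fold change -0.74, 95% confidence interval -1.45 to -0.04 before adjustment, limma, adjusted p = 0.063). It was called lower with quantile normalization (-1.11), in limma without trend (adjusted p = 0.0439) and without active replicate 3 (-0.99). Summed over the 6 flanking regions, accessibility was 273, 251 and 247 in active and 64, 61 and 64 in inactive libraries. The log2 ratio of the sums was 2.03, and a two-sided exact permutation test over the 3 and 3 libraries returned its lowest possible value, p = 0.1. With a flank of 200 kb the ratio shrank to 0.21, as more abundant regions on the downstream side then entered the sum.

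**Figure D1:**
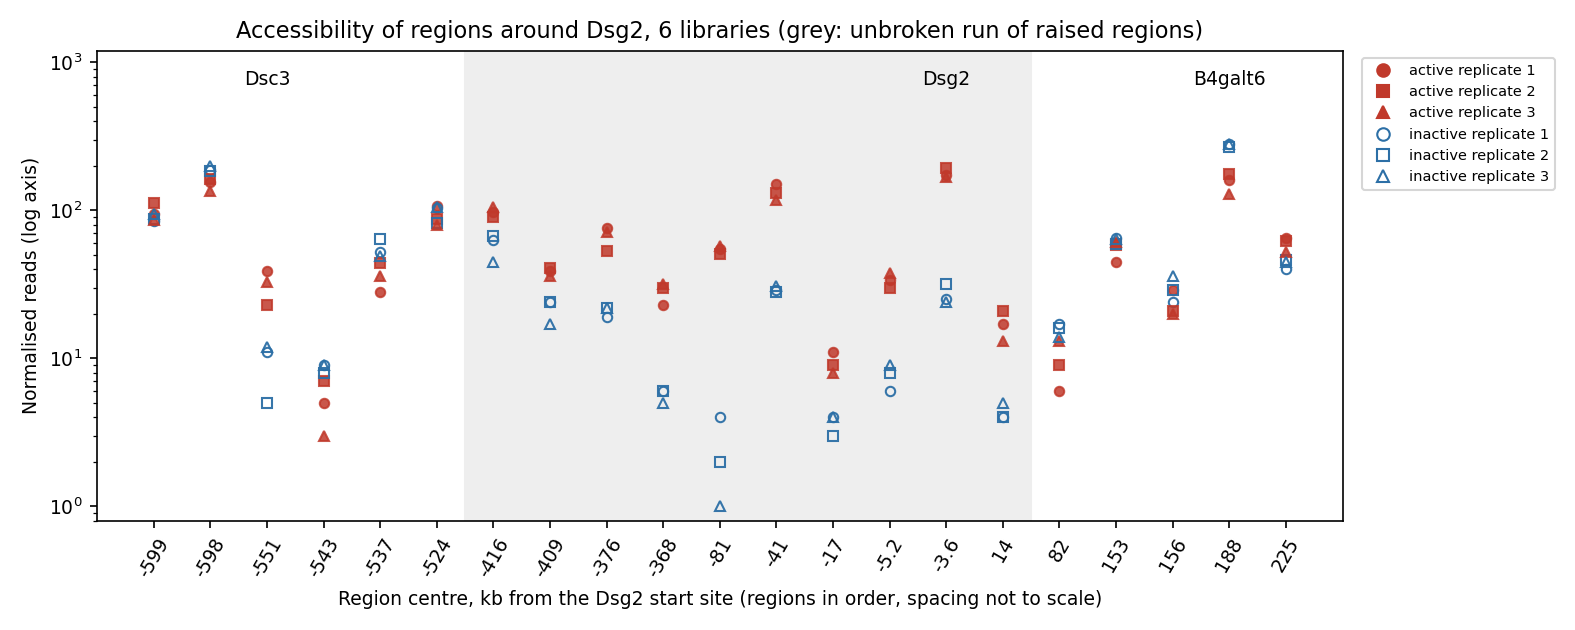
Normalised reads on a log axis for each library at 21 regions around Dsg2, ordered by position and labelled by their distance in kb from the Dsg2 start (negative upstream); filled red symbols are active and open blue symbols inactive replicates. Grey marks the run of raised regions from 416 kb upstream to 14.45 kb past the start (region centres). Within it, active symbols lie above inactive ones at every region, the untested one 16.6 kb upstream included. At the tested regions just outside it on either side the difference did not pass.

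The rise extended past the 100 kb limit. Going outward from Dsg2 region by region and skipping untested ones, the calls of higher accessibility continued without a break over 9 regions, the Dsg2 region included, from 20274832 to 20705663, a stretch of 431 kb. It reached 416 kb upstream of the Dsg2 start and 14.5 kb past it. The 4 regions of the run beyond 100 kb lay 368 to 416 kb upstream, and no region was analysed between them and that at 20610195.

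At 20323131 to 20323366 the active libraries held 23, 30 and 32 and the inactive ones 6, 6 and 5 (log2 fold change 2.13 ± 0.33 SE). Its inactive mean of 5.67 was under the 10 required for testing, so only higher active values could bring it into the test. At 20314528 to 20314880 the values were 76, 53 and 71 against 19, 22 and 22 (1.61 ± 0.19 SE). The outermost pair, at 20281856 and 20274832, rose by 0.82 ± 0.22 SE and 0.75 ± 0.15 SE. Whether the change differs in size between the far end and the regions near Dsg2 was not tested. In each of these 4 regions the groups did not overlap, which was the case with active libraries wholly above in 31.8% of all tested regions.

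Beyond the far end, the next tested region, 107 kb farther upstream at 20167361 to 20167866, held 107, 87 and 80 against 103, 82 and 106 and did not pass (log2 fold change -0.09). At the near end the run stopped with the region past the end of Dsg2 described above. Among all 7726 runs of consecutive higher calls in the table, the median length was 1 region, 157 runs (2.03%) held at least 9 regions and 273 (3.53%) were at least as long in kb. The longest held 47 regions. The Dsg2 run was built outward from a higher region of a gene chosen in this comparison, so nothing is read from its place among these runs. With values centred on the median of each 10 Mb window, the Dsg2 run kept its 9 regions and both ends, and of 8164 runs 71 (0.87%) held as many regions or more and 207 (2.54%) were at least as long in kb. Without active replicate 1 or active replicate 2 it held 8 regions, with no filter on low values 10, and with only regions of mean 50 or more 3 regions over 413 kb.

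The neighbours of Dsg2 include the other desmosomal cadherin genes. In the RefSeq gene order of GRCm38.p6, Dsc3, Dsc2, Dsc1, Dsg1c, Dsg1a, Dsg1b, Dsg4, Dsg3 and Dsg2 follow each other, flanked by Cdh2 on the Dsc3 side and by Ttr and B4galt6 on the Dsg2 side. In the table, annotated regions were analysed for Dsc3 and Dsg2 alone among these 9 genes. The region of Dsc3, a desmocollin, lay 551 kb upstream of the Dsg2 start at 20139718 to 20139912, outside the unbroken run. It rose from 11, 5 and 12 to 39, 23 and 33 normalised reads (limma, adjusted p = 8.51e-06, log2 fold change 1.71 ± 0.31 SE). With an inactive mean of 9.33, under the 10 required, this region too could be tested only through higher active values.

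B4galt6 and Cdh2, the genes with annotated regions on either side, were called lower, as were 53.1% of tested chromosome 18 regions. Regions annotated to Ttr were not analysed here. B4galt6, which encodes a galactosyltransferase of glycolipid synthesis, fell at its start region 188 kb past the Dsg2 start, from 281, 267 and 282 to 161, 177 and 129 (log2 fold change -0.84). At Cdh2, which encodes N-cadherin, the classical cadherin of fibroblasts, and lies outside the 1 Mb shown, both regions were called lower. With centred values B4galt6 stood at -0.57, and the Cdh2 region nearest its start went from -0.62 to -0.22. Between 100 and 250 kb from Dsg2, 1 of 4 tested regions was higher and 1 lower, between 250 and 500 kb 4 of 5 were higher and 1 lower, and between 500 and 1000 kb 1 of 16 was higher and 10 lower. These counts stand beside 18.5% of chromosome 18 regions higher and 53.1% lower. With centred values these counts were 1 and 1, 4 and 0, and 3 and 2, beside 30.5% of chromosome 18 regions higher and 25.3% lower. The 10 Mb window that holds Dsg2 has 133 tested regions with a median change of -0.27 on the log2 scale, so that the raised stretch lies in surroundings that were lower in the active line.

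**Figure D2:**
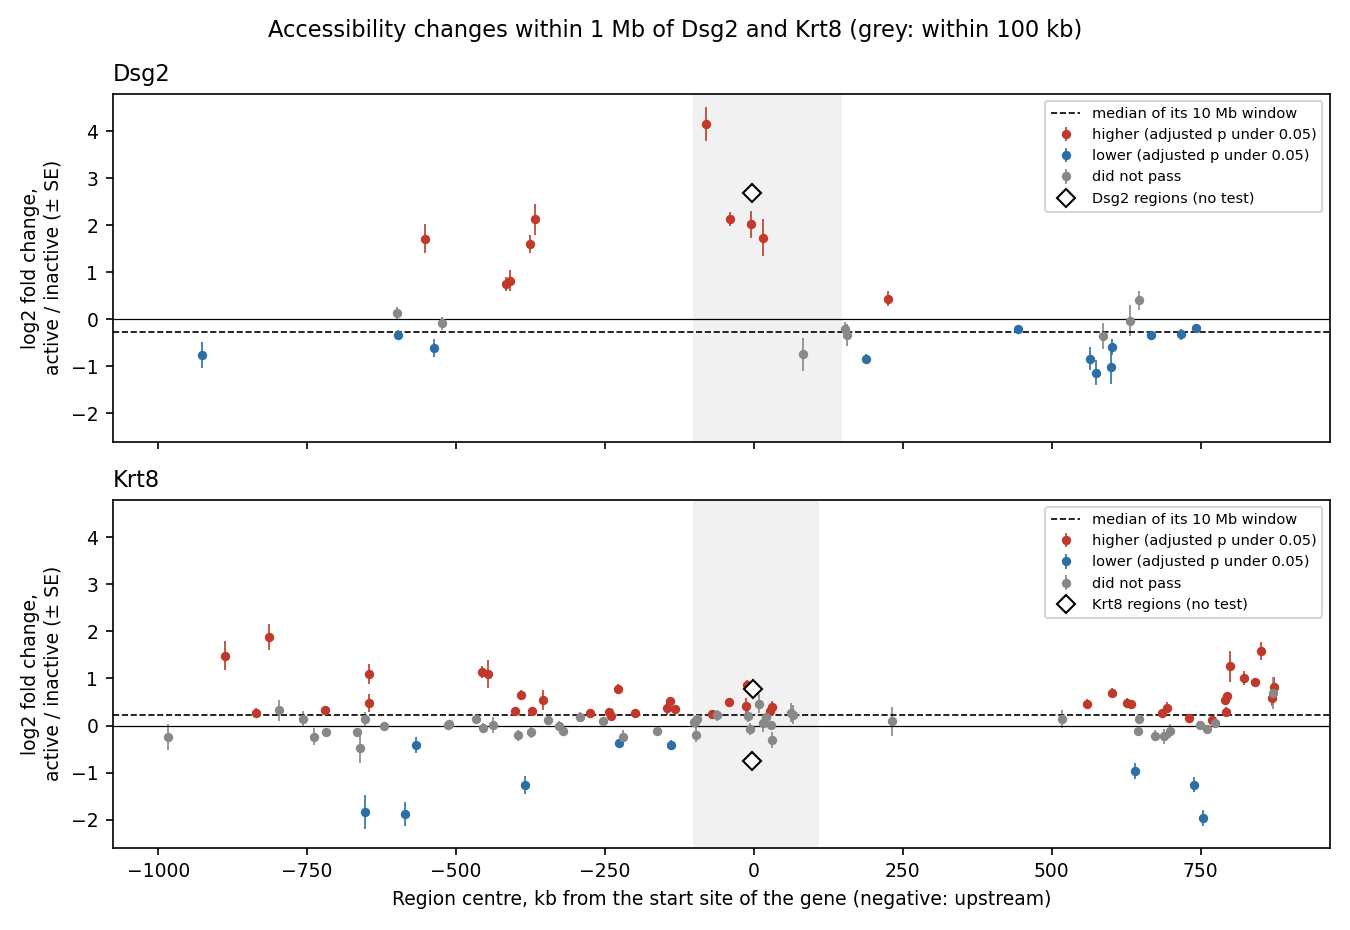
Log2 fold change (active against inactive, bars are SE) of each tested region within 1 Mb of Dsg2 (top) and Krt8 (bottom), by distance from the start of the gene in kb; red regions were higher, blue lower and grey did not pass, diamonds are the annotated regions of the gene and the dashed line is the median of the 10 Mb window. Around Dsg2, 9 of the 11 raised regions form the run described, with changes up to 4.15, and the others are Dsc3 at 551 kb upstream and a region 225 kb downstream (0.44). Around Krt8 rises, falls and regions that did not pass are mixed on both sides, with changes from -1.97 (755 kb away) to 1.89 (814 kb away).

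At Krt8 the 2 annotated regions differed in opposite directions. The region nearer the start, from 101913625 to 101914112, held 136, 171 and 134 normalised reads in active and 78, 89 and 88 in inactive libraries. All active libraries lay above all inactive ones, with means of 147 ± 20.8 and 85 ± 6.08 (SD, n = 3 each) and a log2 fold change of 0.78 ± 0.12 SE. The farther region, from 101915417 to 101915793, held 52, 44 and 57 in active and 80, 86 and 94 in inactive libraries. Here all active libraries lay below, with means of 51 ± 6.56 and 86.7 ± 7.02 and a log2 fold change of -0.76 ± 0.15 SE. With centred values the nearer region stood at 0.55 and the farther at -0.99.

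Only 1304 bp separate these regions. In the inactive libraries they were about equally accessible, the ratio of the nearer to the farther being 0.975, 1.03 and 0.936. In the active libraries the ratio was 2.62, 3.89 and 2.35, and the groups did not overlap. Of 2214 genes with at least 2 tested regions, 156 (7.05%) had at least 1 called higher and at least 1 called lower. Krt8 was chosen in this comparison, and nothing is read from this share.

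Changes in the surroundings of Krt8 were small and scattered. Of the 19 flanking regions within 100 kb, all tested, 6 rose, 0 fell and 13 did not pass, that is 31.6% higher beside the 30.9% of all regions and the 50.1% of chromosome 15 regions. The median log2 fold change was 0.21, beside 0.27 for chromosome 15 and -0.02 for all regions. The summed accessibility was 3613, 3518 and 3524 in active and 2997, 3049 and 3098 in inactive libraries, a log2 ratio of 0.22 (two-sided exact permutation test, p = 0.1, the smallest possible). Centred on its 10 Mb window, whose median over 157 regions was 0.23, the log2 ratio of the sum went to -0.01, with 2 flanking regions higher and 5 lower. With centred values 27.6% of all regions were higher and 22.4% lower, and on chromosome 15 29.2% and 22.1%.

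The strongest of the 6 lay 11.8 kb upstream of Krt8, at 101924490 to 101924946. It held 196, 180 and 209 normalised reads in active and 116, 86 and 122 in inactive libraries (limma, adjusted p = 1.45e-08, log2 fold change 0.86 ± 0.11 SE). Its size was close to that of the nearer Krt8 region, and no active library overlapped an inactive one. The region at 101953687 to 101954604, 41.2 kb upstream, rose from 202, 211 and 218 to 279, 315 and 301 (limma, adjusted p = 7.73e-07, log2 fold change 0.50 ± 0.08 SE). These are the 2 flanking regions that remained higher with centred values, at 0.63 and 0.27.

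The other 4 rises were smaller and lost their calls with centred values. The region at 101926357 to 101926639 held 48, 46 and 58 against 34, 37 and 42 (log2 fold change 0.42, limma, adjusted p = 0.0418). It also lost its call with quantile normalization (0.26) and when active replicate 3 (0.32) or 1 of the inactive replicates 1 (0.35) and 2 (0.41) was left out. Downstream of the gene, the region at 101885533 to 101886287, 18.8 kb past the end of Krt8, held 454, 463 and 430 against 367, 385 and 341 (0.30, limma, adjusted p = 1.32e-04). The region at 101882235 to 101882450 held 108, 120 and 101 against 84, 76 and 89 (0.40, limma, adjusted p = 0.00549).

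Eif4b, which encodes a cofactor of the helicase that unwinds mRNA for translation, had 1 region, 258 bp from its start and 69.5 kb from that of Krt8. It held 531, 505 and 463 in active and 397, 432 and 427 in inactive libraries (limma, adjusted p = 7.41e-04, log2 fold change 0.25 ± 0.06 SE). With centred values it stood at 0.02, and in limma without trend its adjusted p was 0.0607.

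The regions next to the Krt8 pair did not pass. On the upstream side, the region at 101919081 to 101919718 held 145, 111 and 92 in active and 121, 132 and 110 in inactive libraries, which overlapped (log2 fold change -0.08, 95% confidence interval -0.34 to 0.17). On the other side, 0.799 kb past the end of the gene, the region at 101903995 to 101904334 held 35, 44 and 34 against 26, 31 and 24, without overlap (0.46, limma, adjusted p = 0.0518). It passed with a pseudocount of 5 (0.41), in limma without trend (adjusted p = 0.035), and without active replicate 3 (0.53) or inactive replicate 2 (0.56). Where it passed, the run of consecutive higher calls from the nearer Krt8 region grew from 1 region to 2. No setting gave a longer one.

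Among the named neighbours, Krt79, a type II keratin of the same gene cluster, had 2 regions whose groups overlapped, at 30, 41 and 50 against 38, 30 and 33 (limma, adjusted p = 0.33) and at 51, 30 and 54 against 34, 35 and 39 (limma, adjusted p = 0.242). The second passed without active replicate 2 (0.53). Tns2, which encodes the focal adhesion protein tensin 2, had 3 regions, of which the one at its start held 405, 403 and 419 against 357, 362 and 402 (log2 fold change 0.13, limma, adjusted p = 0.0827). It passed with quantile normalization (0.18) and without inactive replicate 3 (0.19). The other 2 Tns2 regions stood at -0.20 and 0.07, and with centred values both were lower (-0.43 and -0.16). Krt18 lies next to Krt8 in the RefSeq gene order, and regions annotated to it were not analysed here.

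**Figure D3:**
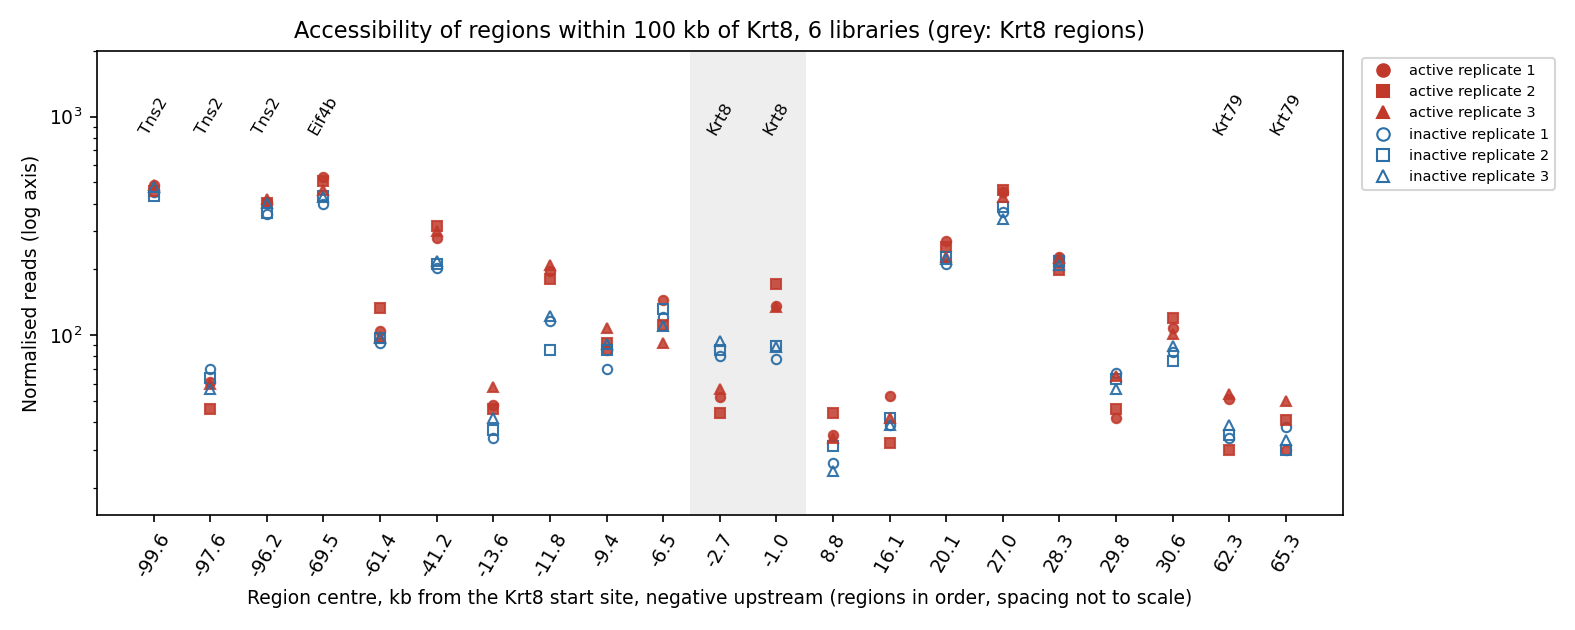
Normalised reads on a log axis for each library at the 21 regions within 100 kb of Krt8, ordered by position and labelled by their distance in kb from the Krt8 start (negative upstream); filled red symbols are active and open blue symbols inactive replicates, and grey marks the Krt8 regions. At the region 1.0 kb upstream the active symbols lie above the inactive ones (134 to 171 against 78 to 89) and at that 2.7 kb upstream below them (44 to 57 against 80 to 94), while at most other regions the groups lie close together or overlap.

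At the limit of the 100 kb rule, the last region inside for Dsg2 was that 80.7 kb upstream of the gene, with a log2 fold change of 4.15, and the first outside, 107 kb past the gene on the other side, stood at -0.20. On the upstream side the first region outside was that at 20323131, which stood at 2.13. For Krt8, the last region inside was 99 kb from the gene at 0.07 and the first outside 101 kb from it at 0.08. Between 100 and 250 kb of Krt8, 7 of 13 regions were higher and 2 lower, beside 6 higher and 0 lower of the 19 within 100 kb and 50.1% higher and 11.2% lower on chromosome 15. With centred values 2 of the 13 were higher and 4 lower. This stretch includes Igfbp6, which encodes a binding protein of insulin-like growth factors and which, like Krt8, had neighbouring regions that differed in direction. Its region at 102051454 fell from 184, 221 and 187 to 156, 147 and 142, and that at 102053777 rose from 140, 147 and 151 to 211, 198 and 217 (log2 fold changes -0.41 and 0.51, adjusted p = 3.51e-04 and 6.99e-06 by limma). The same held for Itgb7 in this stretch, with regions at -0.36 and 0.78 (adjusted p = 1.85e-05 and 6.33e-09 by limma).

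By mean absolute difference in log2(value + 1) over the 6 libraries, the region most like that of Dsg2 was one of Angpt4, an angiopoietin gene on chromosome 2, at a difference of 0.14. It held 161, 198 and 177 in active and 30, 27 and 26 in inactive libraries. Regions of Sh2b2 (0.27) and Eif4e (0.32) followed. Most like the nearer Krt8 region were those of Tuba1c, an alpha-tubulin gene also on chromosome 15 (0.11), Plscr2 (0.12) and Artn (0.12), with 131 to 161 normalised reads in active and 73 to 90 in inactive libraries.

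The other desmosome genes did not share a direction. Of 17 genes besides Dsg2, 6 had a tested region, and by the region nearest the start 3 rose and 3 fell, with a median log2 fold change of 0.07. Over all 11075 genes with a symbol, measured the same way, 22.4% rose and 36.3% fell, with a median of -0.10, and with centred values 15.7% were higher and 20.5% lower. Besides Dsc3, Pkp3, which encodes plakophilin 3, a plaque protein, rose from 110, 96 and 109 to 172, 133 and 159 normalised reads (limma, adjusted p = 5.15e-05, log2 fold change 0.55 ± 0.11 SE). Jup, the gene of plakoglobin, which binds desmoglein tails, fell at its start region from 353, 352 and 345 to 234, 224 and 246 (-0.58 ± 0.07 SE; limma, adjusted p = 1.02e-08). Pkp2 was the third to rise (0.30), and Ppl, the gene of periplakin, also fell (-0.47). Pkp4 fell by 0.17 on the log2 scale and stood at 0.08 with centred values, which left 3 genes higher and 2 lower.

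Of 33 keratin genes besides Krt8, 7 were tested, of which 2 rose, 2 fell and 3 did not pass (median -0.08). Over all genes 22.4% rose and 36.3% fell. With centred values 2 keratin genes were higher and 2 lower, beside 15.7% and 20.5% of all genes. Krt7, the other type II keratin of simple epithelia and 601 kb from Krt8 on the same chromosome, rose from 173, 157 and 147 to 259, 228 and 292 (limma, adjusted p = 2.06e-08, log2 fold change 0.70 ± 0.09 SE). Krt16, on chromosome 11, was the other to rise (0.35). With centred values Krt7 stood at 0.47 and Krt16 at 0.68. Krt19, a type I keratin of simple epithelia, was at 37.3 ± 9.07 in active and 39 ± 6.08 in inactive libraries, and the groups overlapped. Krt10 and Krt13, type I keratins of stratified epithelia on chromosome 11, fell by 0.66 and 0.49 on the log2 scale, and the Krt13 call was lost with centred values (-0.16).

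Among genes of epithelial junctions and surfaces, 15 of 35 were tested, 4 rose and 3 fell (median 0.02). Over all genes these shares were 22.4% and 36.3%. Cldn4 and Cldn3, genes of tight junction claudins on chromosome 5, rose from low levels, from 17, 21 and 15 to 44, 51 and 53 and from 8, 12 and 14 to 33, 25 and 27 (log2 fold changes 1.44 and 1.27). Ap1m2, which encodes an epithelial clathrin adaptor subunit, fell from 58, 52 and 44 to 28, 18 and 21 (-1.18), a call that was lost with centred values (-0.43). With centred values 5 of the 15 were higher and 1 lower, beside 15.7% and 20.5% of all genes. Regions annotated to Cdh1 and Epcam, defining genes of epithelia, were not analysed here.

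Of 20 epithelial transcription and splicing regulators, 9 were tested, 5 rose and 1 fell (median 0.27). Of all genes, 22.4% rose and 36.3% fell. Foxa1, a pioneer factor of endodermal epithelia, rose from 14, 12 and 13 to 47, 41 and 47 (limma, adjusted p = 3.72e-08, log2 fold change 1.72 ± 0.23 SE). Grhl1, a grainyhead factor, rose by 0.66 and turned to -0.21 with centred values. With centred values, for which the shares over all genes were 15.7% higher and 20.5% lower, 3 of the 9 were higher and 1 lower. Of 8 repressors of epithelial genes, all tested, 1 rose and 4 fell (median -0.31), beside 22.4% and 36.3% of all genes. Twist2 fell from 245, 231 and 210 to 81, 80 and 63 (limma, adjusted p = 7.21e-16, log2 fold change -1.61 ± 0.11 SE), Prrx1 by 0.76 and Zeb1 by 0.52. Zeb2 (-0.13) and both SNAIL genes, Snai1 (-0.03) and Snai2 (-0.13), did not pass. Zeb1 lies on chromosome 18, as Dsg2 does, and stood at 0.08 with centred values, and Twist1, the gene that rose, turned from 0.19 to -0.36. With centred values 0 of the 8 were higher and 3 lower.

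Of 20 fibroblast genes, 17 were tested, and regions annotated to Lum, Dcn and Postn were not analysed here. The mean accessibility of the 17 was at least 29.7 normalised reads in either group. Testing required a mean of at least 10, so these levels cannot check the labelled cell type. In the active line 13 fell and 2 rose, beside 36.3% and 22.4% of all genes, with a median log2 fold change of -0.46. With centred values 12 were lower and 1 higher, beside 20.5% and 15.7% of all genes, and Col1a2, a collagen gene, turned from 0.57 to -0.46. The largest falls were at Loxl1 (-1.60), an enzyme gene of elastic fibre assembly, S100a4 (-1.14) and Thy1 (-0.95). With centred values these genes stood at -0.82, -1.08 and -0.30. The summed accessibility of the 40 regions of fibroblast genes was 6250 to 6487 in active and 7862 to 8170 in inactive libraries. The 21 regions of epithelial junction genes summed to 2085 to 2092 in the active line and 2009 to 2036 in the inactive line. The 12 regions of desmosome genes other than Dsg2 were lower in the active line, at 2871 to 3100 against 3280 to 3316. The sums of the 11 keratin regions (1363 to 1513 against 1338 to 1431) and the 12 of epithelial regulators (2291 to 2429 against 2210 to 2319) overlapped, and those of the 11 repressor regions were lower (2035 to 2243 against 2472 to 2553). No sums over other genes and no centred sums stand beside these, so nothing is read from their direction. Of single tested regions, 31.8% lay wholly above and 30.5% wholly below in the active line. A sum is also led by its most abundant regions, and counted by gene, 3 desmosome genes rose and 3 fell. The values of all 6 lists move with the comparison, and their part in the changes at Dsg2 and Krt8 was not tested.

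**Figure D4:**
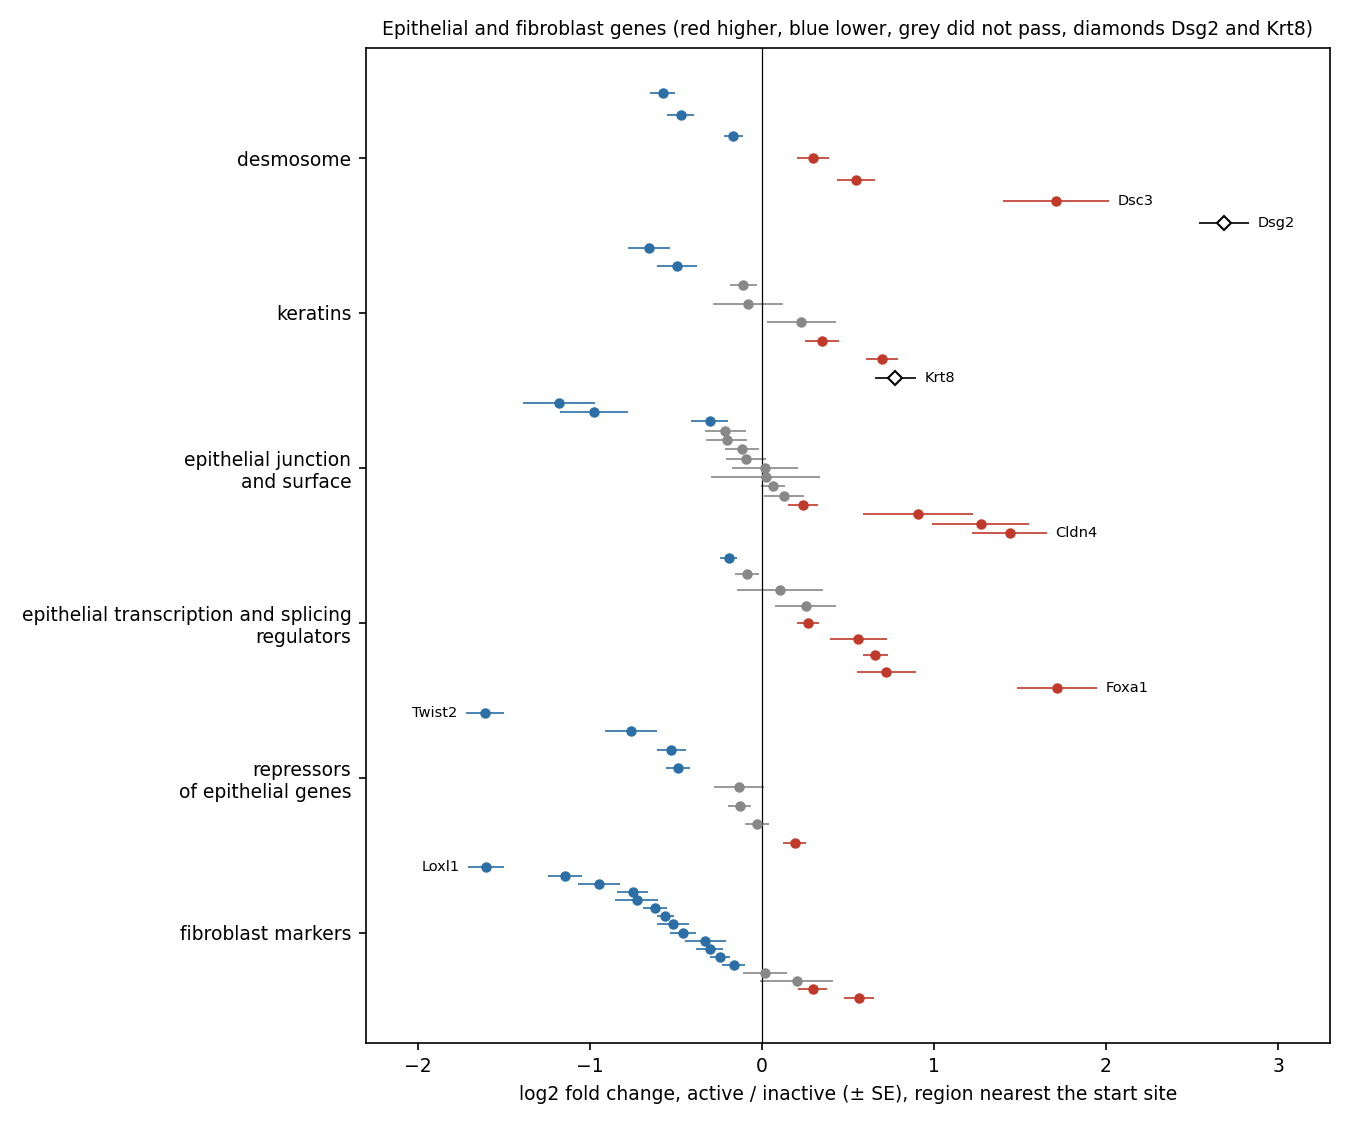
Log2 fold change (active against inactive, bars are SE) of the region nearest the start of each tested gene in 6 lists; red genes were higher, blue lower and grey did not pass, and diamonds mark Dsg2 and Krt8, for which no test is given. Dsg2 (2.69) lies above every other gene of the 6 lists, but it was chosen in this comparison and nothing is read from its place. Krt8 (0.78) lies close to Krt7 (0.70), and 13 of 17 fibroblast genes lie below 0 as called lower.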

How the data were processed

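ATAC-seq libraries of NIH3T3 knock-in cells, 3 active and 3 inactive, were grouped by knock-in label. The submitters' processing notes list mm39 and, among others, STAR 2.7.11a, Trimmomatic 0.39, featureCounts, DESeq2 1.36.0 and Picard 3.1.1. How peaks were called is not stated in those notes. The unit is a score deposited by the authors, namely normalised reads in whole numbers, as near-equal totals and skipped integers in each column show. Exact reads could not be restored, so count tests were not used, and reads per library in the regions were estimated from the spacing of the integers. Distances to start sites are the deposited ones.

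Values were tested as log2(value + 1) with limma 3.58.1 (trend, robust) in R 4.3.3, without covariates, for 51253 regions whose mean reached 10. Adjusted p-values cover all tested regions, at a threshold of 0.05. The fit was also tried on simulated data for this comparison (51140 regions). It called 30 of 100 regions given a 1.5-fold change and 79 of 100 given a 2-fold one. Benjamini-Hochberg adjustment is stricter where few regions differ, as in that trial. In the libraries themselves, 30.9% of tested regions were called higher and 29.2% lower. The shares from the trial therefore do not carry over, and how often small changes were missed here is not known. Python 3.11.15, numpy 2.4.6, pandas 2.3.3 and matplotlib 3.10.9 were used otherwise. The members and gene lists were chosen with earlier results of these data known. Named were all gene-annotated regions within 100 kb, the 3 genes per list with the largest called change without overlap, and the 3 genes with the most similar values. One gene that this rule names is not reported here. Genes named beyond these, among them B4galt6, Cdh2, Col1a2, Igfbp6, Itgb7, Krt16, Krt19, Pkp2, Pkp4, Ppl and Twist1, and the run of raised regions were chosen after their values were seen. Alternatives were other pseudocounts, filters, scalings, flanks, a replicate block and leaving out each library.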

Additional observations from a re-analysis of the deposited data

How the results depend on the processing

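Over all regions, 15827 were higher and 14957 lower, and 8402 and 9705 with a mean of at least 50, where 28986 regions were tested; leaving out 1 library gave 14505 to 15365 higher and 12655 to 14803 lower. At Dsg2, 4 flanking regions were higher (3 to 4 without 1 library, 1 of 1 tested with a mean of at least 50) and 0 lower (0 to 1 without 1 library, 1 with quantile normalization, limma without trend or a flank of 200 kb). The log2 ratio of the flank sum, 2.03, was 1.98 to 2.06 without 1 library, 2.18 with a mean of at least 50, 1.85 with quantile normalization, 2.30 centred on 10 Mb windows, 1.74 with a flank of 50 kb and 0.21 with one of 200 kb. The Dsg2 run of 9 regions was 8 to 9 without 1 library and 3 with a mean of at least 50. At Krt8, 6 flanking regions were higher (5 to 7 without 1 library, 2 centred, 10 with a flank of 200 kb) and 0 lower (0 to 1 without 1 library, 5 centred, 1 with quantile normalization or a flank of 200 kb). The Krt8 flank sum, 0.22, was 0.21 to 0.23 without 1 library, 0.28 with a flank of 50 kb and turned to -0.00999 centred. The Krt8 run of 1 region was 1 to 2 without 1 library and 2 with a pseudocount of 5 or limma without trend. Centring also turned the flanking regions at 101884379 (0.01 to -0.22) and 102011934 (0.07 to -0.16), Grhl1 (0.66 to -0.21) and Zeb1 (-0.52 to 0.0817). The means and flanks change which regions are counted; the cause of the other changes was not tested. Replicate numbers did not pair the libraries: same-numbered deviations correlated at 0.00137, -0.00600 and -0.0162. With a replicate block 4 and 6 flanking regions were higher, the runs held 9 and 1 regions and no call in the windows changed. Few reads limit the low regions, above all that at 20610195, whose inactive values were 4, 2 and 1.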
